A study of Mus musculus with 9 samples.

Results

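The genes described here are 9 that handle nucleotides outside the cell and the adenosine that comes from them: Nt5e (CD73), Entpd1 (CD39), Enpp1, Adora2a, Adora2b, Ada, Adk, Cd38 and Bst1 (CD157). All 9 are among the 24346 genes with a value. They were picked by symbol for their roles, but they were chosen from results of these same libraries in which ABCs had been compared with FO B cells. Their differences between ABCs and FO B cells are therefore given as a description with standard errors and no p-value. The number of them past a threshold is given only beside the share of all genes, with nothing read from it. The comparison of the 2 FO B groups and the other genes of the pathway are tested. Those other genes were listed by role, but they and the marker lists were also chosen with earlier results of these data known. Their FDRs between ABCs and FO B cells carry that limit and are no independent support.

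RNA-seq was performed on B cells sorted from the spleen of wild-type C57BL6 mice. Age-associated B cells (ABCs) are a B cell subset that accumulates with age and expresses the integrins CD11b and CD11c together with the transcription factor T-bet. Follicular (FO) B cells are the main mature B cells of the spleen. The groups were FO B cells of young mice at 8 weeks, FO B cells of aged mice at 50 weeks and ABCs of aged mice at 50 weeks, with 3 libraries in each. The study's methods give the FO B gate, in part, as B220hiCD43-CD23+CD21lo and the ABC gate, in part, as B220hiCD43-CD23-CD21loCD11b+CD11c+. No ABCs of young mice are among the libraries, so age and cell type are separated only through the FO B cells. The study describes the replicates as mice, and the labels do not say whether ABCs and FO B cells came from the same animals.

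Cells release ATP and NAD when they are stressed, activated or damaged. CD39 removes phosphates from extracellular ATP and ADP to leave AMP, and CD73 removes the last phosphate to give adenosine. Adenosine acts on G protein-coupled receptors, of which Adora2a raises cAMP and dampens lymphocyte activation, until it is carried into the cell and either deaminated by Ada or phosphorylated back to AMP by Adk. CD38 and its relative CD157 consume extracellular NAD. On mouse B cells, CD73 is commonly used as a marker of memory cells, and CD38 is abundant on naive and memory cells but lost in the germinal center.

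Of the 9 genes, Nt5e, which encodes the adenosine-forming enzyme CD73, differed most between ABCs and FO B cells. Nt5e was low in FO B cells of both ages, at most 1.05 FPKM, a level corrected for transcript length and sequencing depth. It was above 56 FPKM in each ABC library. Adora2a and Adk were also several-fold higher in ABCs, Entpd1 and Cd38 were about doubled, Enpp1 and Ada overlapped with FO B cells, and Adora2b and Bst1 were at or near the limit of detection throughout. The plot of the 9 genes by library shows these levels.

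**Figure D1:**
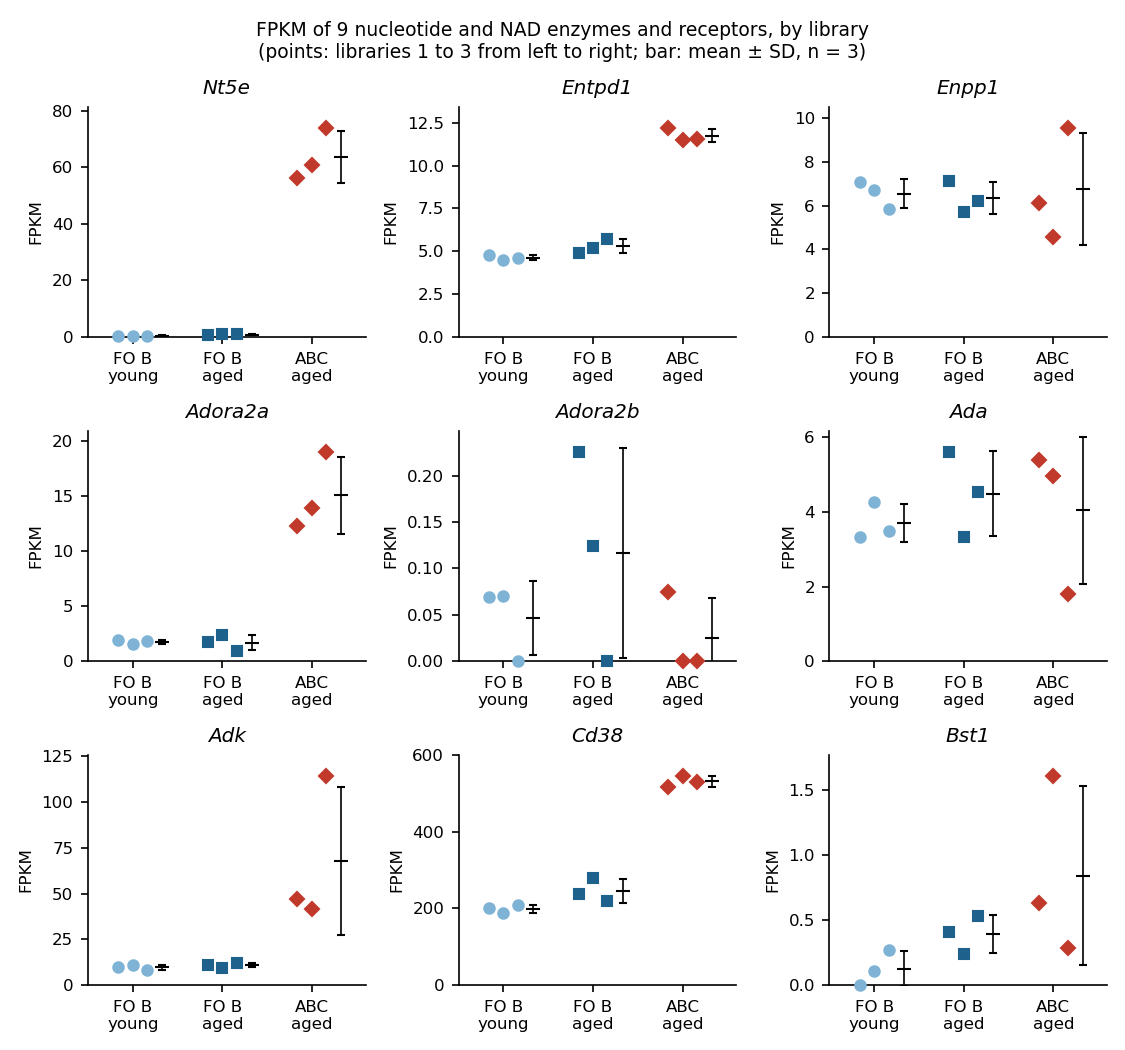
FPKM (vertical axes, linear and starting at 0) of each of the 9 genes in the 3 libraries of each group, with libraries 1 to 3 from left to right and the group mean ± SD (n = 3) beside them. The ABC libraries lie above all FO B libraries for Nt5e, Entpd1, Adora2a, Adk and Cd38, whereas the groups overlap for Enpp1, Ada and Adora2b, and ABC replicate 3 stands apart for Adk and Ada.

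In the GENCODE M21 annotation of GRCm38, the assembly that mm10 names, the 9 genes are protein-coding and lie on 7 chromosomes. Nt5e spans chr9:88327197-88372092 on the plus strand with 4 annotated transcripts. Entpd1 spans chr19:40612366-40741602 on the plus strand, and Enpp1 spans chr10:24637914-24712159 on the minus strand. Adora2a lies at chr10:75316877-75334784 and Adora2b at chr11:62248984-62266453, both on the plus strand. Ada lies at chr2:163726584-163750239 on the minus strand. Adk lies at chr14:21052574-21448569 on the plus strand. Bst1 and Cd38 are neighbours on the plus strand, at chr5:43818885-43843986 and chr5:43868553-43912375, with 24566 bases between them.

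Promoter sequence is shown for Nt5e, Adk, Adora2b and Entpd1. RefSeq promoter windows of GRCm38.p6 (250 bases before each start) were found for 7 of the 9 genes, with 9 windows in all. They were searched on both strands for the GC box GGGCGG, the T-box core TCACACC, the E-box CAGGTG and the cAMP response element TGACGTCA. Of all 32851 windows in the table, 32.7% hold the GC box, 3.33% the T-box core, 17.2% the E-box and 1.55% the cAMP response element. The sequences below run 5′ to 3′ on the strand of the gene, with each match to the GC box in capitals. The first is a stretch of 30 bases before the Nt5e start at chr9:88327576-88327605 (plus strand), where 2 matches share a base, and GENCODE M21 places it inside an annotated exon. The second is the window before the second Adk start at chr14:21075902-21076151 (plus strand), with 3 matches. The third precedes Adora2b at chr11:62248734-62248983 (plus strand) and has 6 matches, the most among these windows. The fourth precedes the second Entpd1 start at chr19:40659520-40659769 (plus strand) and has none.
Nt5e: ggtctgtccCCGCCCCGCCCtcctctactc
Adk: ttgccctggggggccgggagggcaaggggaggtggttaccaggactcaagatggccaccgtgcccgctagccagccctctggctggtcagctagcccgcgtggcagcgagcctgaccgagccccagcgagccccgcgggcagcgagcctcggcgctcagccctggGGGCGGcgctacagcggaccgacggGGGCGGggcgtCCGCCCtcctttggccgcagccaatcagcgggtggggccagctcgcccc
Adora2b: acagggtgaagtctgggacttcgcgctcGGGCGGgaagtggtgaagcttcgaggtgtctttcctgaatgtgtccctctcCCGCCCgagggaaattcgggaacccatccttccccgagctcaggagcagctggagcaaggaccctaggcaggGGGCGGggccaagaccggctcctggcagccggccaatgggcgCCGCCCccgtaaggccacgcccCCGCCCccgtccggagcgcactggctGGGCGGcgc
Entpd1: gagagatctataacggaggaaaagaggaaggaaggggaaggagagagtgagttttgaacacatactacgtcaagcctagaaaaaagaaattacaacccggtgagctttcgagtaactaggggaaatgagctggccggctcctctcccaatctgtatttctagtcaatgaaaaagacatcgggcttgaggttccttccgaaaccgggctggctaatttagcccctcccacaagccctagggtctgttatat
None of the 9 windows holds the letters of the T-box core or of the cAMP response element. The Adora2b window, with the most GC boxes, belongs to a gene with at most 3 reads in any library, and the whole Nt5e window holds 4. A relation between the number of GC boxes and the RNA level was not tested.

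The depth was similar across groups. The value of 1 read, recovered from the spacing of low FPKM values, put the mapped reads at about 7290000 to 8870000 a library, with 10032 to 10445 genes at 1 FPKM or more. Whole reads were recovered for 5 of the 9 genes (Nt5e, Adora2a, Adora2b, Ada and Bst1). Such counts carry counting error and also the variation between mice and libraries. The sort markers followed the gates. Itgam (CD11b) was 46.2, 53.6 and 65.7 FPKM in ABCs and at most 0.98 FPKM in FO B cells, and Itgax (CD11c) was 45.0, 59.7 and 47.3 FPKM against at most 0.206 FPKM. Fcer2a (CD23) was 4.15, 6.95 and 0.463 FPKM in ABCs against 697 to 728 FPKM in aged FO B cells, and Cr2 (CD21) was 4.93, 8.39 and 0.745 FPKM against 127 to 166 FPKM. Spn (CD43) was 62.6, 54.1 and 86.7 FPKM in ABCs and 2.75 to 3.32 FPKM in aged FO B cells, although both gates are CD43-. ABC replicate 3 differed from the other ABC libraries in several of these genes, so the values of the 9 genes are given with and without it where it matters.

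CD73 and CD39 form adenosine from ATP in sequence. Nt5e was 56.1, 60.7 and 73.9 FPKM in ABCs, or 1552, 1857 and 2062 reads. In FO B cells of aged mice it was 0.547, 1.05 and 0.934 FPKM, or 15, 35 and 28 reads. In FO B cells of young mice it was 0.234, 0.472 and 0.504 FPKM, or 7, 14 and 15 reads. The groups were far apart, and the ratio of mean FPKM between ABCs and aged FO B cells was 75.4. The difference in mean log2(FPKM + 1) was 5.13 ± 0.15 (SE, n = 3 and 3) against aged FO B cells and 5.52 ± 0.14 against young FO B cells, both with the same ABC libraries. The added 1 makes this difference smaller than the ratio of FPKM for a gene this low in FO B cells, and with 0.1 in its place the difference was 6.11 and 7.02. Among genes at 1 FPKM or more, Nt5e exceeded 81.6% to 85.3% in the ABC libraries.

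Entpd1, the ecto-enzyme upstream of CD73, differed less but with little spread. It was 12.2, 11.5 and 11.6 FPKM in ABCs, 4.93, 5.21 and 5.74 FPKM in aged FO B cells and 4.76, 4.51 and 4.62 FPKM in young FO B cells. The 3 ABC libraries exceeded all FO B libraries, with a ratio of mean FPKM of 2.22 against aged and 2.54 against young FO B cells. The difference in mean log2(FPKM + 1) was 1.02 ± 0.10 and 1.18 ± 0.09 (SE, n = 3 and 3). The balance of the 2 RNAs thus differed between cell types. Nt5e over Entpd1, both in FPKM, was 4.60, 5.29 and 6.39 in ABCs against 0.111, 0.201 and 0.163 in aged FO B cells.

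Enpp1, which splits ATP directly to AMP and pyrophosphate and so bypasses CD39, did not separate the groups. It was 6.14, 4.54 and 9.54 FPKM in ABCs, 7.11, 5.69 and 6.23 FPKM in aged FO B cells and 7.10, 6.71 and 5.84 FPKM in young FO B cells. The ABC libraries held both the lowest and the highest value, and the difference in mean log2(FPKM + 1) was 0.03 ± 0.23 (SE, n = 3 and 3) against aged FO B cells.

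Of the 2 adenosine receptors, Adora2a was the one with reads to compare. Adora2a was 12.3, 13.9 and 19.0 FPKM in ABCs (241, 302 and 377 reads), 1.75, 2.36 and 0.939 FPKM in aged FO B cells (34, 56 and 20 reads) and 1.88, 1.52 and 1.84 FPKM in young FO B cells (40, 32 and 39 reads). No ABC library came near an FO B library. The ratio of mean FPKM was 8.95 against aged and 8.62 against young FO B cells, and the difference in mean log2(FPKM + 1) was 2.60 ± 0.24 and 2.53 ± 0.17 (SE, n = 3 and 3). Adora2b, the receptor of low affinity, had at most 3 reads in any library, with 2 reads over the young FO B group, 5 over the aged FO B group and 1 over the ABC group. A difference in Adora2b was not detectable at this depth.

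The enzymes that remove adenosine did not move together. Adk was 47.1, 41.5 and 114 FPKM in ABCs, 11.2, 9.48 and 11.9 FPKM in aged FO B cells and 9.89, 11.1 and 8.44 FPKM in young FO B cells. The ABC libraries exceeded all FO B libraries, and replicate 3 was far above the other ABC libraries. The ratio of mean FPKM between ABCs and aged FO B cells was 6.24, or 4.09 without ABC replicate 3, and the difference in mean log2(FPKM + 1) was 2.39 ± 0.35 (SE, n = 3 and 3), or 1.94 without that library. Against young FO B cells the ratio was 6.89, or 4.51 without ABC replicate 3.

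Ada was 5.40, 4.96 and 1.79 FPKM in ABCs (66, 67 and 22 reads), 5.61, 3.33 and 4.53 FPKM in aged FO B cells (68, 49 and 60 reads) and 3.32, 4.28 and 3.50 FPKM in young FO B cells (44, 56 and 46 reads). The groups overlapped, and replicate 3 was the lowest of the ABC libraries and of all 9. The difference in mean log2(FPKM + 1) against aged FO B cells was -0.19 ± 0.33 (SE, n = 3 and 3), and it was 0.19 without ABC replicate 3. Adk over Ada, both in FPKM, was 8.72, 8.37 and 64.0 in ABCs and between 1.99 and 2.97 in the 6 FO B libraries. ABC replicate 3 was the library with the highest Adk and the lowest Ada, which sets its ratio far from the other ABC libraries.

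CD38, the main NAD-consuming ecto-enzyme of B cells, was the most abundant of the 9 RNAs in every library. Cd38 was 517, 546 and 531 FPKM in ABCs, 237, 280 and 219 FPKM in aged FO B cells and 201, 187 and 208 FPKM in young FO B cells. The ABC libraries were within a narrow range and well above both FO B groups, with a ratio of mean FPKM of 2.17 against aged and 2.68 against young FO B cells. The difference in mean log2(FPKM + 1) was 1.12 ± 0.10 and 1.42 ± 0.06 (SE, n = 3 and 3). Cd38 exceeded 98.0% to 98.1% of the genes at 1 FPKM or more in the ABC libraries.

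Bst1, the GPI-anchored relative next to Cd38, was close to its detection limit. It was 0.631, 1.61 and 0.284 FPKM in ABCs (11, 31 and 5 reads), 0.405, 0.238 and 0.529 FPKM in aged FO B cells (7, 5 and 10 reads) and 0, 0.107 and 0.266 FPKM in young FO B cells (0, 2 and 5 reads). The ABC and aged FO B libraries overlapped, and 1 ABC library held most of the ABC reads. Exons of Bst1 overlap exons of Fbxl5 on the other strand, and the kit does not keep strand, so these few reads cannot be assigned to Bst1 alone. Fbxl5 was 57.3, 73.5 and 30.3 FPKM in the same ABC libraries, with the same order as Bst1. In aged FO B cells it was 46.4, 50.6 and 47.5 FPKM, and in young FO B cells 43.7, 41.5 and 49.7 FPKM. In both FO B groups its order differed from that of Bst1. The part of Fbxl5 in the Bst1 reads was not tested.

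Cd38 and Bst1 arose by gene duplication, and their coding sequences were compared to see how far reads could be mistaken between them. Their coding sequences are 912 bases (Cd38) and 933 bases (Bst1) long in GENCODE M21 transcripts. In a global alignment 490 of 801 aligned bases (61.2%) were identical, and the longest run of bases shared anywhere was 12, far less than the length of a read. The most similar stretch of 60 bases had 40 identical bases. It covers coding bases 153 to 212 of Cd38 and 81 to 140 of Bst1, shown with the identical bases in capitals.
Cd38: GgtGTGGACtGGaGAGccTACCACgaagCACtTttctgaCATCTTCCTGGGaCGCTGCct
Bst1: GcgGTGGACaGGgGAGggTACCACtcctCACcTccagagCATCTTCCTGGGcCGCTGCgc

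Ordered by mean FPKM in ABCs, Cd38 came first, followed by Adk, Nt5e, Adora2a, Entpd1, Enpp1, Ada, Bst1 and Adora2b. The ranges over libraries overlapped for the neighbours Adk and Nt5e and for Enpp1 and Ada, and the ranges of Adora2a and Entpd1 nearly touched. In aged FO B cells the order was Cd38, Adk, Enpp1, Entpd1, Ada, Adora2a, Nt5e, Bst1 and Adora2b, with overlapping ranges for the neighbours Enpp1 and Entpd1, Entpd1 and Ada, and Adora2a and Nt5e, and with the ranges of Nt5e and Bst1 nearly touching. Nt5e was thus the third in ABCs and the seventh in aged FO B cells. Without ABC replicate 3 the mean of Nt5e (58.4 FPKM) was above that of Adk (44.3 FPKM).

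Of the 9 genes, 7 passed the filter of a mean of 1 FPKM in the comparison of ABCs with aged FO B cells, where Adora2b and Bst1 did not. In a limma fit over 10412 genes, 5 of the 7 were called higher at a Benjamini-Hochberg FDR under 0.05, where 19.4% of all genes tested were, and 0 were called lower, where 16.5% of all genes were. The study's volcano plot used an FDR under 0.01 and a log2 fold change above 2.3. Here 2.3 was applied to the difference in mean log2(FPKM + 1), which for low genes is smaller than the log2 fold change of FPKM. At these thresholds the called members were Nt5e, Adora2a and Adk, and 1.49% of all genes tested were higher. Adk was past 2.3 only with ABC replicate 3 in the fit, since its difference without that library was 1.94. Against young FO B cells the same numbers of members were called, with 21.6% of 10438 genes higher, 19.1% lower and 1.72% higher at the stricter thresholds. Both comparisons share the ABC libraries and used the contrast on which the genes were chosen, so nothing is read from these counts. The median difference in mean log2(FPKM + 1) over the 7 genes was 1.12 against aged FO B cells and -0.01 over all genes tested. The plot of differences shows each gene with its standard error.

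**Figure D2:**
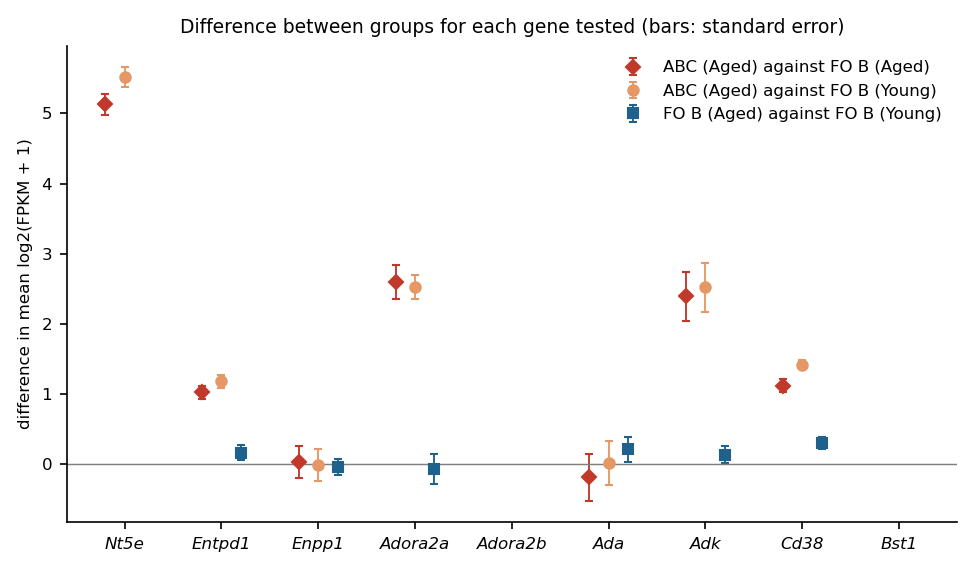
Difference in mean log2(FPKM + 1) (vertical axis) for each gene that passed the filter, with bars for the standard error and a colour for each comparison (n = 3 libraries a group). Nt5e has the largest difference (5.13 and 5.52), Adora2a and Adk lie near 2.5, Entpd1 and Cd38 near 1, and the differences between the FO B groups lie within 0.30 of 0.

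The comparison of aged with young FO B cells addressed age without a change of sorted subset. No member passed an FDR of 0.05 in limma, with 0 of 6 tested genes called higher or lower, where 0.346% of 10122 genes were higher and 0.119% lower. At an unadjusted limma p under 0.05 there was 1 member, Cd38. The share of all genes at that p was not counted, so nothing is read from this number. Cd38 was higher in aged FO B cells by 0.30 ± 0.09 on the log2 scale (SE, n = 3 and 3, limma FDR 0.217), and all 3 aged libraries lay above all 3 young libraries. Entpd1 differed by 0.16 ± 0.11 (limma FDR 0.583), Ada by 0.21 ± 0.17 (limma FDR 0.666), Adk by 0.13 ± 0.12 (limma FDR 0.713), Enpp1 by -0.04 ± 0.12 (limma FDR 0.924) and Adora2a by -0.07 ± 0.21 (limma FDR 0.928).

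Nt5e was too low in FO B cells to enter that fit. Its mean was 0.843 ± 0.263 FPKM in aged and 0.403 ± 0.148 FPKM in young FO B cells (SD, n = 3 each), a ratio of 2.09, and all 3 aged libraries lay above all 3 young libraries (exact two-sided permutation test, p = 0.1, the smallest p that 3 against 3 libraries can give). The FO B groups did not overlap, with the aged group higher, for 3 of the 9 genes (Nt5e, Entpd1 and Cd38), where this was so for 6.24% of the 18096 genes above 0 in at least 1 of the 6 libraries. The same exact test gave p = 0.2 for Bst1 and p = 0.5 for Adora2b. In FO B cells of aged mice, 78 reads of Nt5e were found over 3 libraries, and in the young mice 36.

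Genes that the pathway shares with these 9 were listed by role, 82 in all, of which 79 had a value. Of these, 38 were tested between ABCs and aged FO B cells, and 10 were higher and 8 lower in ABCs (limma FDR under 0.05), with 20 not called, where 19.4% of all genes tested were higher and 16.5% lower. A gene that passed the filter only through its level in ABCs, or only through its level in aged FO B cells, was bound to differ. With a library left out, 4 to 8 genes were higher and 6 to 8 lower. The higher count was 4 without ABC replicate 1, and it was 6 without ABC replicate 2, aged FO B replicate 1 or aged FO B replicate 3. Their median difference was 0.11 in mean log2(FPKM + 1), against -0.01 over all genes tested. Against young FO B cells 10 of 38 were higher and 7 lower, with a median of 0.04, where 21.6% of all genes tested were higher and 19.1% lower. Between the FO B groups 0 of 35 passed the FDR, where 0.346% of all genes tested were higher and 0.119% lower. At an unadjusted limma p under 0.05 there were 3, and nothing is read from them, since the share of all genes at that p was not counted. The counts were thus mixed in direction, and the plot by role shows where the called genes lie.

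**Figure D3:**
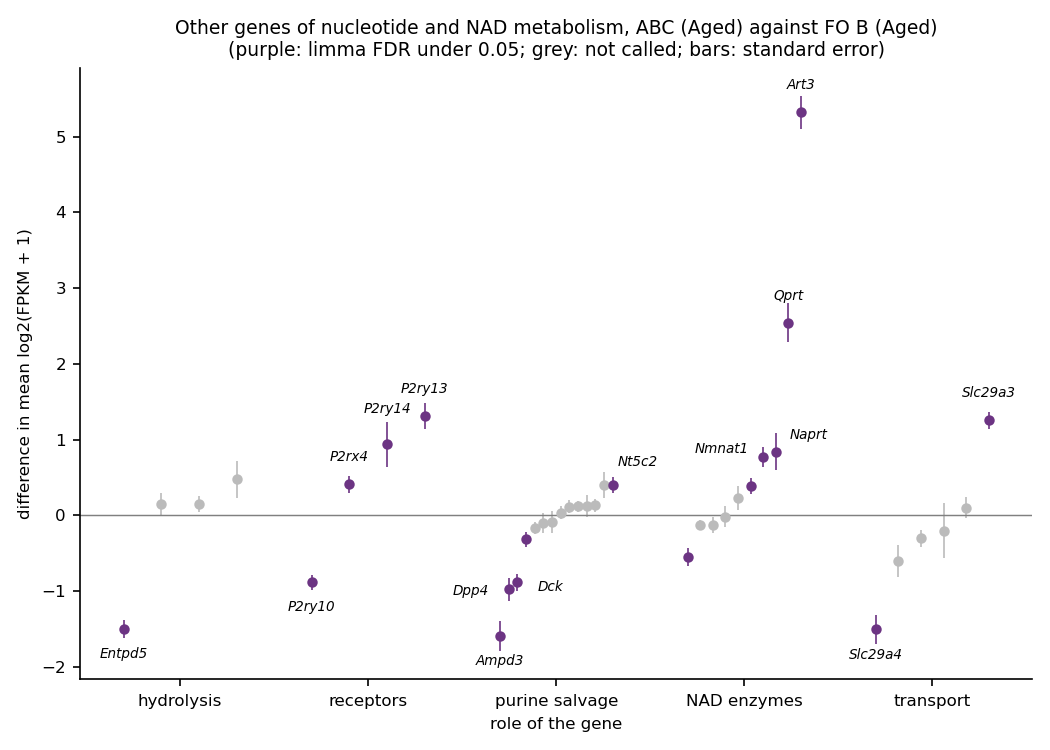
Difference in mean log2(FPKM + 1) of ABCs from aged FO B cells (vertical axis) for the 38 other pathway genes tested, by role, with purple points for a limma FDR under 0.05 and bars for the standard error (n = 3 libraries a group). Art3 (5.32) and Qprt (2.54) stand above the rest, and Ampd3 (-1.60), Slc29a4 (-1.51) and Entpd5 (-1.50) are the lowest.

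Among the other nucleotide hydrolases, 4 of 16 listed genes were tested and 1 was called. Of all genes tested, 19.4% were higher and 16.5% lower. Entpd5, a nucleoside diphosphatase of the endoplasmic reticulum, was 7.64, 6.07 and 6.90 FPKM in ABCs and 23.3, 18.7 and 21.8 FPKM in aged FO B cells. It was lower in each ABC library, with a difference of -1.50 ± 0.12 on the log2 scale (limma FDR 0.000185), opposite in direction to Entpd1.

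Of 18 listed receptors for nucleotides and related ligands, 4 were tested, with 3 higher and 1 lower in ABCs. Of all genes tested, 19.4% were higher and 16.5% lower. P2ry13 and P2ry14 had means under 1 FPKM in aged FO B cells (0.216 and 0.606 FPKM) and passed the filter through the ABC libraries, which favours a call. P2ry13, an ADP receptor, was 2.10, 1.86 and 2.09 FPKM in ABCs against 0.372, 0.131 and 0.146 FPKM in aged FO B cells (1.32 ± 0.17, limma FDR 0.00125). P2ry14, a receptor for UDP-sugars, was 2.59, 1.64 and 1.63 FPKM against 0.175, 0.288 and 1.36 FPKM (0.94 ± 0.30, limma FDR 0.045). P2rx4, an ATP-gated channel, differed by 0.41 ± 0.11 (limma FDR 0.0264). P2ry10, a lysophospholipid receptor of the same family, was the one that was lower, by -0.88 ± 0.10 (limma FDR 0.00064). The P2ry14 call was lost when aged FO B replicate 1 (limma FDR 0.137) or 2 (0.127) or ABC replicate 1 (0.128) or 2 (0.0715) was left out. The P2rx4 call was lost when aged FO B replicate 2 (limma FDR 0.0715) or 3 (0.0917) or ABC replicate 1 (0.0675) was left out, and P2ry13 fell under the filter without any of the ABC libraries.

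Among enzymes of purine salvage, 14 of 20 listed genes were tested, with 1 higher and 4 lower in ABCs. Of all genes tested, 19.4% were higher and 16.5% lower. Ampd3, an AMP deaminase, was 1.39, 2.92 and 2.47 FPKM in ABCs against 7.73, 9.60 and 8.71 FPKM in aged FO B cells (-1.60 ± 0.20, limma FDR 0.00112), and its exons overlap those of Rnf141 on the other strand. Dpp4 (CD26), a surface peptidase known to bind adenosine deaminase in humans, differed by -0.97 ± 0.15 (limma FDR 0.00289). Dck, the kinase of deoxycytidine and deoxyadenosine, differed by -0.88 ± 0.11 (limma FDR 0.00104). Nt5c2, a cytosolic nucleotidase, was higher by 0.41 ± 0.11 (limma FDR 0.0231), and this call was lost when ABC replicate 1 (limma FDR 0.068) or 2 (0.0636) or aged FO B replicate 1 (0.0564) or 3 (0.0811) was left out. Ahcy, which splits S-adenosylhomocysteine to adenosine and homocysteine, was near the threshold (-0.32 ± 0.10, limma FDR 0.0487), and its call was lost with each library left out in turn, with no filter, with upper quartile scaling and with the replicate block (limma FDR 0.0521 to 0.146).

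Among enzymes of NAD, 10 of 20 listed genes were tested, with 5 higher and 1 lower in ABCs. Of all genes tested, 19.4% were higher and 16.5% lower. The lower gene was Nadk2 (-0.55 ± 0.12, limma FDR 0.0117). Art3, a member of the ADP-ribosyltransferase family, was 38.6, 40.3 and 57.6 FPKM in ABCs (428, 494 and 644 reads) and 0, 0 and 0.499 FPKM in aged FO B cells (6 reads in all), with a difference of 5.32 ± 0.22 (limma FDR 1.25e-05). The size of this difference was close to that of Nt5e. Exons of Art3 overlap exons of Cxcl10 on the other strand, and Cxcl10 was 38.6, 34.6 and 102 FPKM in ABCs and at most 0.693 FPKM in aged FO B cells, so reads of the shared exons cannot be told apart. Qprt, which makes NAD precursor from quinolinate, was 3.59, 4.37 and 7.98 FPKM against 0, 0 and 0.114 FPKM (2.54 ± 0.26, limma FDR 0.000475). Art3 and Qprt had means of 0.166 and 0.0381 FPKM in aged FO B cells and passed the filter through the ABC libraries, which favours a call. Naprt and Nmnat1, which act in NAD synthesis from nicotinate and from mononucleotides, were higher by 0.84 ± 0.24 (limma FDR 0.0307) and 0.77 ± 0.13 (limma FDR 0.00418), and the Naprt call was lost when ABC replicate 1 (limma FDR 0.0679) or aged FO B replicate 1 (0.0702), 2 (0.0935) or 3 (0.0575) was left out.

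Of 8 listed transporters and channels, 6 were tested. Slc29a3, a nucleoside transporter of endosomes and lysosomes, was 23.5, 19.6 and 21.1 FPKM in ABCs against 9.08, 8.75 and 7.32 FPKM in aged FO B cells (1.25 ± 0.11, limma FDR 0.000294). Slc29a4, a transporter of adenosine and monoamines, was 0.0472, 0.257 and 0.187 FPKM against 2.14, 1.84 and 3.01 FPKM (-1.51 ± 0.20, limma FDR 0.0013). Its mean was 0.164 FPKM in ABCs, so it passed the filter through the aged FO B libraries, which favours a call. Slc29a4 fell under the filter without aged FO B replicate 3. Slc29a1, the main equilibrative nucleoside carrier of the cell surface, was not called.

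The profile of Nt5e over the 9 libraries was most like that of the genes used to sort ABCs. Likeness was measured as the root mean square distance of log2(FPKM + 1), each gene centred on its own mean, over 10374 other genes. The nearest were Itgam at 0.189 and Itgax at 0.251, whose products CD11b and CD11c defined the ABC gate, so their difference between groups was set by the sort. Next came S1pr5, a sphingosine 1-phosphate receptor, at 0.277, then Itgb1, the integrin beta 1 chain, at 0.304, and Zbtb32, a transcriptional repressor of memory B cells, at 0.307. S1pr5 was 30.6, 33.6 and 30.8 FPKM in ABCs and at most 0.394 FPKM in aged FO B cells. Itgb1 was 347, 275 and 467 FPKM in ABCs and 12.9 to 13.1 FPKM in aged FO B cells. Among the other members Adora2a was the nearest, at rank 122 with a distance of 1.34, followed by Adk at rank 140 with 1.40. The libraries form 3 groups, so this likeness rests mainly on the step between FO B cells and ABCs.

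**Figure D4:**
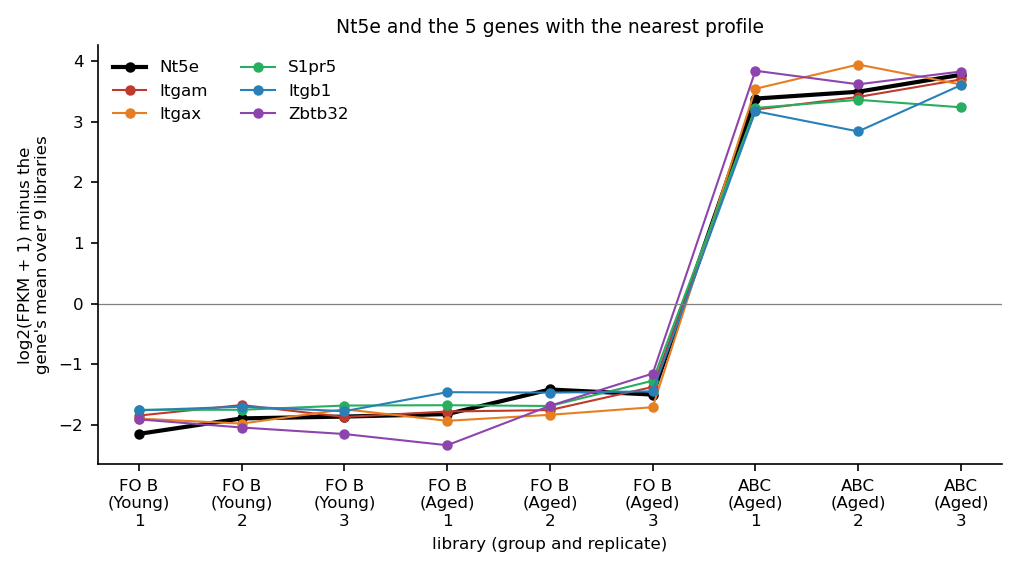
log2(FPKM + 1) minus the gene's mean over the 9 libraries (vertical axis) for Nt5e and its 5 nearest genes in each library (horizontal axis). All 6 lines stay below 0 in the FO B libraries and rise above 0 in the 3 ABC libraries, and the distances from Nt5e range from 0.189 to 0.307.

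CD73, CD39 and Adora2a are also carried by T cells and myeloid cells, so the markers of other cells were read in the same libraries. The B lineage genes Ms4a1, Cd79a, Cd79b, Pax5 and Ptprc were present in every library. Pax5 was lower in ABCs than in aged FO B cells (-0.52 ± 0.10, limma FDR 0.00625), and Ms4a1, Cd79a, Cd79b and Ptprc were not called. ABC replicate 3 was the lowest ABC library for Ms4a1, Cd79a, Cd79b and Pax5, with Cd79a at 3252, 3562 and 2462 FPKM in ABCs. The 12 macrophage and monocyte genes summed to 205 to 245 FPKM in ABCs and 12.1 to 20.2 FPKM in aged FO B cells, and nearly all of the sum in ABCs was Adgre1 (F4/80) at 174, 222 and 199 FPKM. Cd68 (1.13 ± 0.27, limma FDR 0.0155), Ms4a7 (1.34 ± 0.21, limma FDR 0.00276) and Vcam1 (1.28 ± 0.22, limma FDR 0.00388) were also higher in ABCs, at 6.38 to 13.1, 2.58 to 3.36 and 2.14 to 3.75 FPKM. Ms4a7 and Vcam1, and Zbtb46 below, had means under 1 FPKM in aged FO B cells. They passed the filter through the ABC libraries, which favours a call. Csf1r, Cd14, Mertk and Fcgr1 stayed below 1 FPKM in each ABC library, and Lyz2 was 6.06, 2.22 and 7.02 FPKM in ABCs against 2.62, 2.28 and 7.06 FPKM in aged FO B cells. Of the 11 T cell genes, which summed to 5.20 to 39.4 FPKM in ABCs and 1.47 to 2.98 FPKM in aged FO B cells, the 1 above 1 FPKM in ABCs was Cd3g at 9.63, 37.0 and 4.93 FPKM, while Cd3e was 0.0996, 0 and 0 FPKM and Cd4 and Cd8a were at most 0.0421 FPKM. Of the 6 NK cell genes, which summed to 24.5 to 38.0 FPKM in ABCs, the 1 above 1 FPKM was Prf1 at 25.5, 24.1 and 38.0 FPKM, and Ncr1 was at most 0.0882 FPKM. The 8 dendritic cell genes summed to 4.39 to 8.09 FPKM in ABCs and 2.93 to 5.42 FPKM in aged FO B cells, with Zbtb46 higher in ABCs (1.21 ± 0.22, limma FDR 0.00542). The 6 neutrophil genes found summed to 0.128 to 1.20 FPKM in ABCs and 1.09 to 24.0 FPKM in aged FO B cells. In bulk libraries, a change in the number of cells that carry an RNA and a change in RNA per cell cannot be told apart.

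Other B cell stages in which CD73 or CD38 is known to vary were read in the same way. Of the 5 memory B cell genes, Cd80 was 20.7, 22.2 and 34.0 FPKM in ABCs and at most 0.475 FPKM in aged FO B cells (4.32 ± 0.22, limma FDR 2.28e-05), and Zbtb32 (5.49 ± 0.27, limma FDR 2.28e-05) and Pdcd1lg2 (0.79 ± 0.21, limma FDR 0.0253) were also higher. Cd80, and Mki67 and Prdm1 below, had means under 1 FPKM in aged FO B cells. They passed the filter through the ABC libraries, which favours a call. Hhex was lower (-1.01 ± 0.13, limma FDR 0.00141), and Ccr6 was not called (-0.74 ± 0.26, limma FDR 0.0621). Summed over the list, the memory genes were 311 to 399 FPKM in ABCs and 375 to 394 FPKM in aged FO B cells, since Ccr6 and Hhex carry most of the sum. Of the 7 germinal center genes, Bcl6 was 8.04, 5.27 and 6.56 FPKM in ABCs against 25.1 to 36.4 FPKM in aged FO B cells (-2.08 ± 0.18, limma FDR 0.000229), and the sum, mostly Bcl6 in FO B cells, was 13.3 to 17.6 FPKM against 31.2 to 42.0 FPKM. Mki67, a proliferation marker, was higher at 1.83, 1.93 and 3.49 FPKM (1.15 ± 0.22, limma FDR 0.00704), and S1pr2 (0.39 ± 0.20, limma FDR 0.17) and Rgs13 (-0.48 ± 0.41, limma FDR 0.387) were not called. Of the 6 plasma cell genes, which summed to 191 to 225 FPKM in ABCs against 129 to 148 FPKM, Jchain was 61.6, 40.5 and 12.5 FPKM and Sdc1 was 9.54, 8.37 and 29.5 FPKM in ABCs. Jchain (2.34 ± 0.58, limma FDR 0.0188), Sdc1 (1.82 ± 0.42, limma FDR 0.0142) and Prdm1 (1.97 ± 0.25, limma FDR 0.00119) were higher in ABCs, and Xbp1 and Irf4 were not called. The 6 marginal zone genes summed to 213 to 260 FPKM in ABCs and 251 to 278 FPKM in aged FO B cells, with S1pr3 at 54.8, 40.3 and 125 FPKM in ABCs against 3.64 to 4.23 FPKM. Of this list, S1pr3 (3.73 ± 0.37, limma FDR 0.000405) and Cd9 (73.7 to 83.9 FPKM against 7.03 to 10.1 FPKM, limma FDR 1.7e-05) were higher, Cd1d1 (-0.76 ± 0.22, limma FDR 0.0329), Notch2 (-0.76 ± 0.09, limma FDR 0.000745) and the sort marker Cr2 were lower, and Dtx1 was not called (0.01 ± 0.12, limma FDR 0.945). Adk, Sdc1 and S1pr3 were all highest in ABC replicate 3, and Ada and Jchain were lowest there. The part of these cells in the levels of the 9 genes was not tested.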

How the data were processed

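RNA-seq libraries of sorted splenic B cells (young FO B, aged FO B and ABC groups of 3) were made by the authors with the SMART-Seq HT and Nextera XT kits and sequenced from a single end. The FPKM values were deposited by the authors, 1 per gene symbol and library. Per the submitters' processing notes, TopHat2 2.1.1, Bowtie2 2.2.8, SAMtools 0.1.18 and Cuffdiff 2.2.1 were used with mm10, and the study's methods name other versions. The annotation and any scaling between libraries are not given in the sources used here.

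From these values, log2(FPKM + 1) entered lmFit and eBayes (with a trend) of limma 3.58.1, run in R 4.3.3, on the 6 libraries of the groups compared, with genes at a mean of at least 1 FPKM and Benjamini-Hochberg adjustment over all genes tested. The step was tested on simulated data. Single low genes were compared with an exact permutation test. Whole reads were taken as multiples of the smallest FPKM step of a gene (tolerance 0.03 of a read plus 0.0002 of the count). Sequences were aligned with Biopython 1.88, other computations used Python 3.11.15, pandas 2.3.3, numpy 2.4.6 and scipy 1.17.1, and figures matplotlib 3.10.9.

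The members, the pathway list, the 11 marker lists and the tests were chosen with earlier results of these data known. Named genes were the 9 members, in each role up to 4 other pathway genes with the largest differences among those called between ABCs and aged FO B cells, the 5 genes nearest to Nt5e, and the sort and list markers. Ahcy and Nadk2 were also called and were named although they lie past the first 4 of their roles. The names given to Cxcl10, Fbxl5, Nadk2, Rnf141 and Slc29a1 were added after their values were seen. Alternatives were a pseudocount of 0.1, no filter or a mean of 5 FPKM, upper quartile scaling, scaling to a fixed sum, no trend, all 9 libraries, a replicate block, the study's thresholds and leaving out each library. P-values measure the spread between these libraries. Some genes of the marker lists are not reported here.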

Additional observations from a re-analysis of the deposited data

How the results depend on the processing

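With an FDR under 0.05, 5 members were called higher in ABCs against either FO B group under each alternative. This included each fit without a library. At the study's thresholds, applied here to log2(FPKM + 1), 3 members were called, and Adk needed ABC replicate 3. These genes were chosen on that contrast, so the counts are no sign of stability. Of the other pathway genes called between ABCs and aged FO B cells, 18 in all, 2 passed the study's thresholds, and 11 to 15 were called when a library was left out (11 without ABC replicate 1). Against young FO B cells, 17 other pathway genes were called, 1 at the study's thresholds and 15 to 19 without a library. Between the FO B groups, 0 members and 0 other pathway genes were called under all alternatives run. There the small differences of Enpp1 (-0.04) and Adora2a (-0.07) changed sign with a library left out, ranging from -0.114 to 0.024 for Enpp1 (above 0 without young replicate 1 or aged replicate 2) and from -0.25 to 0.15 for Adora2a (above 0 without aged replicate 3), and the cause was not tested. With a replicate block, the members called against aged FO B cells were 5 and the other pathway genes 17, and against young FO B cells 5 and 16. Whether the shared replicate numbers pair the libraries is not known, since deviations from means of 3 libraries cannot settle it. Deviations of same-numbered ABC and aged FO B libraries correlated at 0.0845, -0.019 and 0.1076. ABC replicates 1 and 3 correlated best with the aged FO B library of their own number, and ABC replicate 2 did not. Scaling moved the median over all genes by less than 0.1 on the log2 scale. The depth of at most 8870000 reads limits Adora2b, with at most 3 reads a library, and Bst1, with 0 to 31.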
